A study of Mus musculus with 12 samples.

Results

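The genes described here encode the nuclear pore complex and the receptors that carry cargo through it. They were chosen by symbol, as spots with a single gene symbol that begins with Nup and a digit, Kpna, Kpnb, Ipo and a digit, Xpo, Tnpo, Ranbp or Nxf, together with Ran, Rangap1, Rcc1, Nutf2, Cse1l, Nxt1, Tpr, Rae1, Pom121 and Ndc1. This gave 63 spots of 50 genes, of 23040 spots and 15081 genes in the series. They comprised 18 pore genes, 14 importins, 12 export receptors and 6 others, called Ran genes here. These 6 are Ran, Rangap1 and the remaining Ranbp symbols, with Ranbp9 and Ranbp10 included by symbol only. Of the 50 genes, 33 were measured on all 12 arrays and tested (12, 10, 7 and 4 by class), and the other 17 are given as values. Rcc1, Nutf2, Tpr and Pom121 had no spot under these symbols and were not analysed here.

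The nuclear pore is a ring of nucleoporins set in the nuclear envelope, with an inner ring and an outer scaffold (the Y complex) that hold a channel lined by nucleoporins rich in phenylalanine and glycine. Proteins with a nuclear localization signal are bound by importin alpha and carried in by importin beta, while exportins carry cargo out. Ran, a small GTPase held in its GTP form in the nucleus and in its GDP form in the cytoplasm, tells both kinds of receptor on which side to load and release.

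Total RNA of mouse samples labelled with Cy3 was hybridised with embryonic reference RNA labelled with Cy5 on 12 spotted arrays, in a series about a nuclear growth hormone receptor. The groups were NLS 1GH, NLS 0GH, WT 1GH and WT 0GH, with 3 arrays each under the letters b, c and d. NLS is the usual abbreviation of nuclear localization signal and WT of wild type, and both names stand for the form of the receptor. All titles carry a 10 after the receptor name, and each sample, also with a 0 before GH, lists treatment with human growth hormone (100 ng/ml). The experiment type given is a time course, without a unit for the 0 and the 1. The labels name no promoter, cell type or tissue, so there was no label to check against markers, and they do not say whether the letters are separate cultures. The p-values therefore measure the spread between these samples, which may be technical. In bulk RNA, a lower level cannot be told apart from fewer cells of a type that carries the transcript.

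All values are log2 ratios of sample over embryonic reference, centred on the median of the tested features of each array, so that 0 is the array's typical gene and a difference of 1 is a doubling of the ratio. They compare a gene between arrays and not one gene with another. Between 15939 and 19700 spots had a value per array. No feature passed an adjusted p of 0.05 in any of the 6 comparisons (limma with Benjamini-Hochberg adjustment over 10762 features, 0 called, 0.0%). Marker genes of cell types that the samples could hold were read on the same arrays. The erythroid list had 2 of 5 genes measured, both lower in NLS, and its mean level was -1.31 to -0.62 on the 6 NLS arrays and -0.08 to 0.47 on the 6 WT arrays. Myeloid and mast cell markers ranged from -0.33 to 1.86 on NLS arrays and -0.42 to 1.17 on WT arrays. B lymphoid markers ranged from -0.13 to 2.23 on NLS arrays and 0.46 to 2.07 on WT arrays. Fibroblast markers lay between -4.32 and -3.62 on NLS arrays and between -4.71 and -3.13 on WT arrays. The part of these differences in the results below was not tested.

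The main question was whether these genes differed between the NLS and WT forms of the receptor. Averaged over both GH numbers, 22 of 33 members had a higher ratio in NLS, against 47.7% of all features, and the median difference was 0.37 over the members and -0.03 over all features. The medians were 0.52 for the pore (9 of 12 higher) and 0.24 for importins (6 of 10). Those of export receptors and Ran genes were 0.54 (5 of 7) and 0.13 (2 of 4). Of the Ran genes, Ranbp1 (1.03) and Rangap1 (0.37) were higher. Ranbp9 (-0.10) and Ranbp10 (-0.64), included by symbol only, were lower. The pore median was 0.07 without letter b, that of export receptors -0.03 without the WT 0GH array c, and that of the Ran genes -0.19 without the NLS 1GH array b. At an unadjusted p under 0.05, 5 of 33 members were higher in NLS (2.81% of all features were) and 0 were lower (2.46% of all features were). These were Nup93 and Nup188 of the pore, the importins Kpna6 and Kpnb1, and Ranbp1. In either direction, the count of 5 was 2 of 34 members without letter c (457 of 11386 features). Without letter b it was 3 of 37 members (905 of 12719 features). None of the 5 passed the adjustment over all features, where the lowest adjusted p of a member was 0.794 (Nup93, limma). With the letter as a replicate block, 7 members were higher at this unadjusted p, with Ipo4 and Xpo1 added, and 4.03% of all features were.

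**Figure D1:**
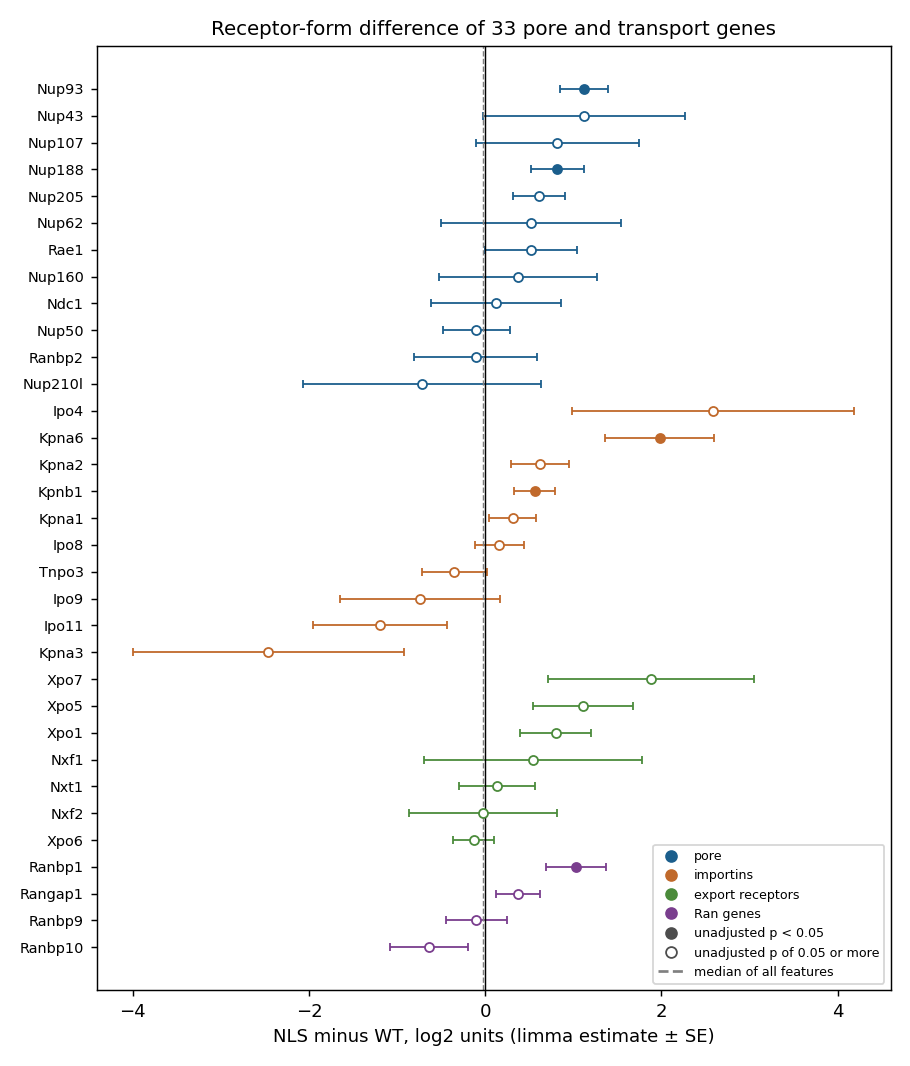
NLS minus WT in log2 units for the 33 members with a value on all 12 arrays, averaged over both GH numbers, with the SE of the limma fit as bars and colours for the 4 classes. Filled points have an unadjusted p under 0.05, and these 5 members all lie to the right of 0, with Kpna6 at 1.98 and Nup93 at 1.12, while none passes the adjusted threshold.

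Among pore genes, the 3 inner ring scaffold genes measured on all arrays, Nup93, Nup188 and Nup205, had differences of 0.61 to 1.12, and Nup93 and Nup188 reached an unadjusted p under 0.05. Their within-group SD was 0.35 to 0.44, against a median of 1.0 over all features. Nup155, also an inner ring scaffold, was measured on 9 arrays and was not tested, and its values ran between -6.55 and 4.54. Nup93, which links the large inner ring scaffolds to the channel nucleoporins, had ratios of 1.88, 1.17 and 0.96 on the NLS 1GH arrays b, c and d and 1.14, 1.44 and 1.37 on the NLS 0GH arrays, against 0.32, 0.41 and 0.37 on WT 1GH and 0.39, 0.23 and -0.50 on WT 0GH. The lowest NLS array stood higher than the highest WT array, as for 0.567% of all features and for 1 other member, Ranbp1. The reverse order was found for 0 members and for 0.158% of features. The difference was 1.12 ± 0.27 (SE, 2.18-fold, unadjusted p = 0.00176 and adjusted p = 0.794 by limma), and it was 1.16, 0.99 and 1.23 in the letters b, c and d. Leaving out any one array or letter left it between 0.98 and 1.22.

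Nup188, a scaffold of the inner ring, had ratios of 0.50, 0.45 and -0.22 on NLS 1GH arrays and -0.70, -0.12 and 0.58 on NLS 0GH arrays, against -0.73, -1.31 and -0.72 on WT 1GH and -0.37, -0.90 and -0.40 on WT 0GH. The groups overlapped through the NLS 0GH array b, the lowest of the NLS arrays. The difference was 0.82 ± 0.30 (SE, 1.77-fold, unadjusted p = 0.0209 and adjusted p = 0.862 by limma). The ratio was higher in NLS in 5 of 6 pairs of the same GH number and letter (share of all features not counted). Nup205, the paralogue of Nup188, had ratios of 1.43, 0.29 and 1.18 on NLS 1GH arrays and 1.15, 0.68 and 0.79 on NLS 0GH arrays, against 0.27, -0.09 and 0.15 on WT 1GH and 0.10, 0.30 and 1.16 on WT 0GH. The NLS 1GH array c and the WT 0GH array d made the groups overlap. Its difference of 0.61 ± 0.30 (SE, 1.52-fold, unadjusted p = 0.0715) was 0.33 without letter b.

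The promoters of these 3 genes are shown because their differences had the same sign and little spread between arrays. They are the 250 bases before the gene start in RefSeq (GRCm38.p6), at chr8:94214314-94214563 for Nup93 (plus strand), chr2:30286166-30286415 for Nup188 (plus strand) and chr6:35177366-35177615 for Nup205 (plus strand). Capitals mark CACGTG, the E-box, and CCAAT or its reverse complement ATTGG, the CCAAT box.
Nup93: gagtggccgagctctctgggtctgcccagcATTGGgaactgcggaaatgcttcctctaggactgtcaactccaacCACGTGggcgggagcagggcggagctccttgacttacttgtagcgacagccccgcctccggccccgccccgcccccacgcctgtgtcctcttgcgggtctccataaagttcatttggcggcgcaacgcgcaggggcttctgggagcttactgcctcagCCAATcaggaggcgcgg
Nup188: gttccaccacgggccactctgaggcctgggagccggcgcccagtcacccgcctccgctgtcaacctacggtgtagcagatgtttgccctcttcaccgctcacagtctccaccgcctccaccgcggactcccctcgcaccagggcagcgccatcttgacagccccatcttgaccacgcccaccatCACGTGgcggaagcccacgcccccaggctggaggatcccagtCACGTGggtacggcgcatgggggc
Nup205: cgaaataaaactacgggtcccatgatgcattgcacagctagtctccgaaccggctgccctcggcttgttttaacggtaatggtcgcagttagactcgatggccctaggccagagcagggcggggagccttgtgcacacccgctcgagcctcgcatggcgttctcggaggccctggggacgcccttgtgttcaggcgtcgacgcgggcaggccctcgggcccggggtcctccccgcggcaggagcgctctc
Nup93 held 1 CACGTG and 2 CCAAT boxes in this window, Nup188 held 2 CACGTG and Nup205 held neither motif. A further Nup93 start in RefSeq, at chr8:94266597-94266846 on the plus strand, held 1 CCAAT box and is not printed.

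The motifs, 5 in all, were searched on both strands, after the expression values were known, in the 40 members with a promoter entry (50 windows), and none of the 5 contains another. CACGTG was found in 9 of 50 member windows and in 6.02% of all 32851 windows. CCAAT was found in 21 of 50 windows against 33.8%, and CCGGAAG, a site bound by ETS factors, in 8 of 50 against 6.91%. The NRF1 motif, GCGCA joined to its reverse complement TGCGC, was found in 5 of 50 windows (Nup107, Nup50, Nup62, Ran and Xpo5) against 0.782%. TTCNNNGAA, the site bound by STAT factors downstream of the growth hormone receptor, was found in 1 of 50 windows, that of Nup107, against 7.02%. These matches are descriptions of the letters in the windows.

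The Y complex genes Nup43, Nup107 and Nup160 had differences of 0.37 to 1.12 with a median of 0.82, and none reached an unadjusted p under 0.05. Their arrays differed far more, with a within-group SD of 1.71 to 2.21, and Nup43, with the largest difference of the 3, had an unadjusted p of 0.354 (limma). The other 6 pore genes had a median difference of 0.01, with 3 of 6 higher. Rae1, a binding partner of Nup98 in mRNA export, stood at 0.52 ± 0.52 (SE), Nup50 at -0.10 ± 0.38, and Ranbp2, the main component of the cytoplasmic filaments, at -0.11 ± 0.70. By ratio to the reference, Rae1 and Nup160 lay above the array median on all 12 arrays (9.71% of features did). Nup50, by the spot in the main fit, was the only member below it on all 12 (11.1% did). A second Nup50 spot, measured on 11 arrays and left out of the main fit, had a mean of 1.12 and NLS minus WT of 0.38.

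**Figure D2:**
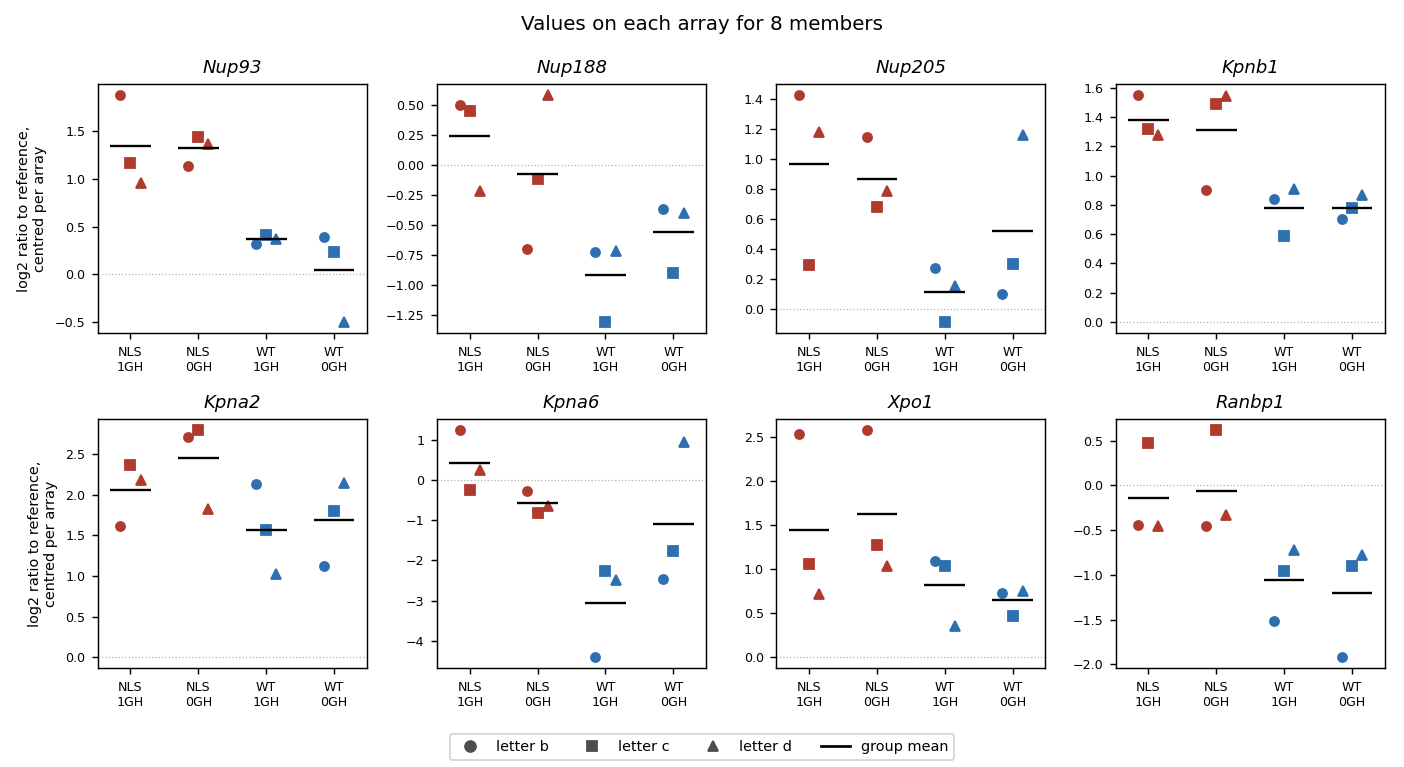
Centred log2 ratio on each of the 12 arrays for 8 members, with NLS 1GH, NLS 0GH, WT 1GH and WT 0GH from left to right, symbols for the letters b, c and d and bars for group means of 3 arrays. For Nup93 and Ranbp1 the NLS and WT arrays do not overlap, and for Kpnb1 the NLS 0GH array b at 0.90 lies just below the WT 1GH array d at 0.91.

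Of the importins, Kpnb1 and Kpna6 were higher in NLS at an unadjusted p under 0.05. Kpnb1 encodes importin beta, the carrier of the classical import pathway, and it varied least of all members (SD 0.21). It had ratios of 1.55, 1.32 and 1.28 on NLS 1GH arrays and 0.90, 1.49 and 1.54 on NLS 0GH arrays, against 0.84, 0.59 and 0.91 on WT 1GH and 0.70, 0.78 and 0.87 on WT 0GH. One NLS array lay within the WT range and the other 5 above it. The difference was 0.56 ± 0.23 (SE, 1.48-fold, unadjusted p = 0.031 and adjusted p = 0.899 by limma), higher in NLS in 6 of 6 pairs (3.49% of features were, and 2.48% were lower in all 6), though the unadjusted p stayed under 0.05 in only 8 of 21 alternative settings.

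Kpna6, an importin alpha, had ratios of 1.24, -0.26 and 0.25 on NLS 1GH arrays and -0.27, -0.82 and -0.65 on NLS 0GH arrays, against -4.40, -2.26 and -2.48 on WT 1GH and -2.45, -1.76 and 0.94 on WT 0GH. Of the 6 WT arrays, 5 lay below every NLS array, and the remaining one, WT 0GH d, stood above all NLS arrays but 1GH b. The difference was 1.98 ± 0.62 (SE, 3.95-fold, unadjusted p = 0.00971 and adjusted p = 0.844 by limma), and 1.0 without letter b. Kpna2, an importin alpha of dividing cells, had ratios of 1.62, 2.37 and 2.19 on NLS 1GH arrays and 2.71, 2.80 and 1.83 on NLS 0GH arrays, against 2.13, 1.57 and 1.02 on WT 1GH and 1.12, 1.80 and 2.15 on WT 0GH. All 12 arrays lay above the array median, the groups overlapped, and the difference was 0.62 ± 0.33 (SE, unadjusted p = 0.0858).

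The other importins went both ways without reaching an unadjusted p of 0.05. Kpna3 stood at -2.46 ± 1.54 (SE) and Ipo4, which carries histones, at 2.59 ± 1.60, and the within-group SD of Ipo4, 3.08, was the largest of the members. With the replicate block, Ipo4 had an unadjusted p of 0.0414 (limma). Its WT 0GH array d lay at -8.17, and at 0GH NLS minus WT was 7.56 in letter d and -1.24 in letter b. The highest Kpna3 value, 8.0, was on the WT 1GH array b. Tnpo3, which carries splicing factors, had 11 spots from 10 sequence records. The 4 spots with all values gave differences of 0.07, -1.07, -0.26 and -0.15, so its average of -0.35 ± 0.37 (SE) joins spots that disagree. Of the spots left out of the main fit, those on 10 and 8 arrays had NLS minus WT of 1.39 and 2.0. Spots on 3 arrays had 3.17 and -3.23.

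The promoter of Kpnb1 is shown because the gene had the steadiest values of the list. It lies at chr11:97187893-97188142 on the minus strand (GRCm38.p6, RefSeq), and capitals mark its 3 CCAAT boxes.
Kpnb1: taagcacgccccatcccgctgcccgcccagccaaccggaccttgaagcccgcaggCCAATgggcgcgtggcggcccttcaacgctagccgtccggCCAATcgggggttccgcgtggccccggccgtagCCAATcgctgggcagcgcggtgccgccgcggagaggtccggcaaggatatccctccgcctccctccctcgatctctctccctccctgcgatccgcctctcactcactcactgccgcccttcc
No CACGTG was found in this window.

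Among export receptors, none reached an unadjusted p under 0.05. The exportins Xpo1, Xpo5, Xpo7 and Xpo6 had a median difference of 0.95, with Xpo6 at -0.13 ± 0.23 (SE). Xpo1, the exportin of proteins with a leucine-rich export signal, had ratios of 2.54, 1.06 and 0.72 on NLS 1GH arrays and 2.58, 1.27 and 1.04 on NLS 0GH arrays, against 1.09, 1.03 and 0.35 on WT 1GH and 0.73, 0.47 and 0.75 on WT 0GH. The letter b arrays of NLS stood highest, and NLS was above WT in 6 of 6 pairs. The difference of 0.80 ± 0.40 (SE, 1.74-fold) had an unadjusted p of 0.0731, and 0.0301 with the replicate block, where the adjusted p was 0.578 (limma). By letter it was 1.65, 0.42 and 0.33, and without letter b it was 0.35.

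Xpo5, which exports microRNA precursors, had ratios of 2.65, 1.75 and 2.48 on NLS 1GH arrays and 1.37, 2.0 and 1.34 on NLS 0GH arrays, against 0.46, 0.01 and 1.80 on WT 1GH and 2.75, -0.71 and 0.63 on WT 0GH. The WT 0GH array b was the highest of all 12. The difference was 1.11 ± 0.57 (SE, unadjusted p = 0.0792), and 0.57 without letter c. Xpo7 had ratios of -1.40, 0.58 and 2.59 on NLS 1GH arrays and 1.86, -0.46 and 0.89 on NLS 0GH arrays, against -0.68, -3.20 and -0.83 on WT 1GH and -1.50, -4.01 and 3.02 on WT 0GH. The WT arrays alone spanned the whole range of the NLS arrays, and the difference was 1.88 ± 1.17 (SE, unadjusted p = 0.139). It was 1.0 without letter c and 2.84 without the WT 0GH array d.

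Of the mRNA export receptors, Nxf1, the main carrier of mRNA, had ratios of 0.76, -0.49 and 2.62 on NLS 1GH arrays and 3.58, -2.48 and -0.22 on NLS 0GH arrays, against 3.87, -1.24 and 1.93 on WT 1GH and 0.04, -3.65 and -0.43 on WT 0GH. Letter c was the lowest in all 4 groups, and the difference of 0.54 ± 1.24 (SE, unadjusted p = 0.671) was within the spread and turned to -0.28 without the NLS 0GH array b. Its partner Nxt1 stood at 0.13 ± 0.43 and Nxf2 at -0.03 ± 0.84.

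**Figure D3:**
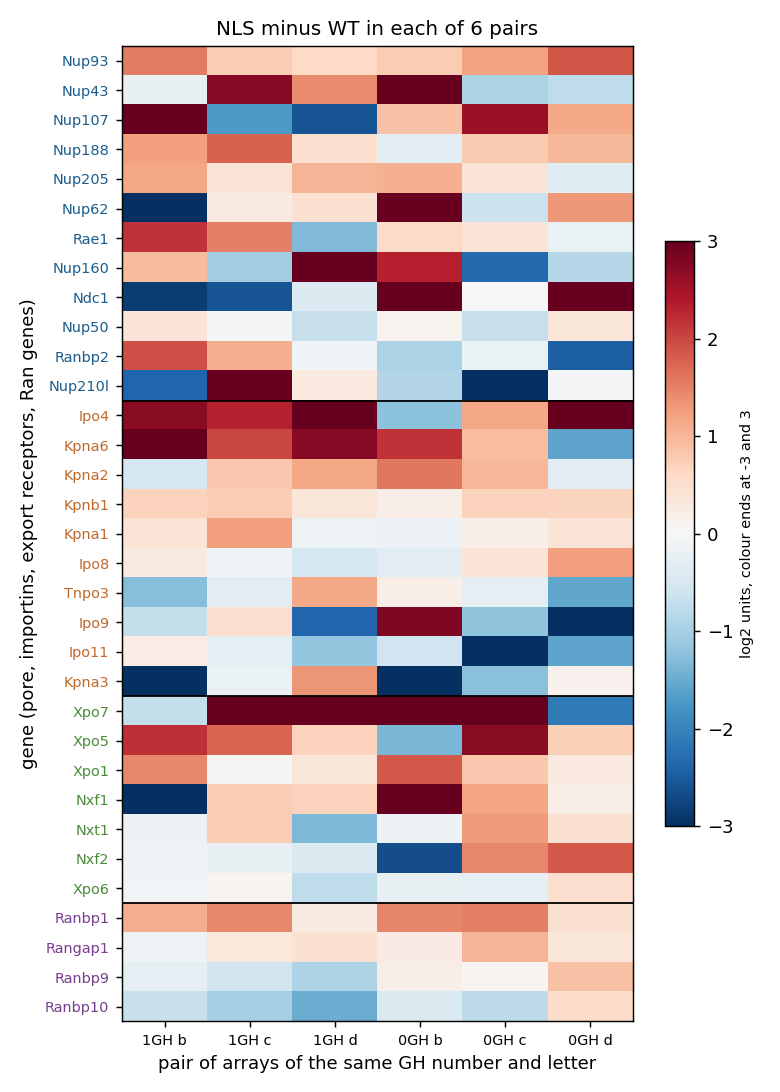
NLS minus WT in log2 units for each of the 33 members (down the page, by class) in the 6 pairs of arrays of the same GH number and letter, in colours that end at -3 and 3. Kpnb1, Nup93, Ranbp1 and Xpo1 are above 0 in all 6 pairs, and 0 members are below 0 in all 6.

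Among the Ran genes, Ranbp1 reached an unadjusted p under 0.05 and the others did not. Ranbp1 binds Ran in its GTP form in the cytoplasm and helps Rangap1 to trigger hydrolysis. It had ratios of -0.44, 0.47 and -0.45 on NLS 1GH arrays and -0.45, 0.62 and -0.33 on NLS 0GH arrays, against -1.52, -0.96 and -0.72 on WT 1GH and -1.92, -0.90 and -0.78 on WT 0GH. No NLS array was as low as any WT array, with letter c highest in both NLS groups. The difference was 1.03 ± 0.34 (SE, 2.05-fold, unadjusted p = 0.0127 and adjusted p = 0.844 by limma), and with the replicate block these p-values were 0.00392 and 0.458.

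Rangap1, the GTPase activator of Ran, had ratios of -0.49, -0.13 and 0.13 on NLS 1GH arrays and -0.81, 0.14 and -0.29 on NLS 0GH arrays, against -0.32, -0.45 and -0.33 on WT 1GH and -1.06, -0.88 and -0.64 on WT 0GH. The WT 0GH arrays held the lowest values with the NLS 0GH array b among them, and the difference was 0.37 ± 0.25 (SE, unadjusted p = 0.17), and 0.24 without letter c. Ranbp10, a Ran-binding protein related to Ranbp9, had ratios of -0.83, -0.83 and 0.47 on NLS 1GH arrays and -0.46, -0.57 and -0.56 on NLS 0GH arrays, against -0.17, 0.17 and 1.97 on WT 1GH and -0.02, 0.22 and -1.10 on WT 0GH. It was lower in NLS in 5 of 6 pairs (share of all features not counted), by 0.64 ± 0.44 on the log2 scale (SE, unadjusted p = 0.179 by limma). The difference was -0.31 without the WT 1GH array d, the highest of the 12.

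The promoter of Ranbp1 is shown because the gene is the member besides Nup93 whose groups did not overlap. It lies at chr16:18248695-18248944 on the minus strand (GRCm38.p6, RefSeq), and capitals mark its 1 CCAAT box.
Ranbp1: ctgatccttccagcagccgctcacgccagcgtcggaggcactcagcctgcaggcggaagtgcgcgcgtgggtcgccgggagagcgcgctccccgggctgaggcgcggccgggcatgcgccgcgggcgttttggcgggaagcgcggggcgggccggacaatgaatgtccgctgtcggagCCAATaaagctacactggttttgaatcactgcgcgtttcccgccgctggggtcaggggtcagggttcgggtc
Nup93, Kpnb1 and Ranbp1 thus hold a CCAAT box in these windows, as 18 of 40 members with an entry do, while Nup188 and Nup205 do not.

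The receptor difference was next set out at each GH number. At 1GH, 19 of 33 members were higher in NLS (46.8% of features were) and at 0GH 23 of 33 were (49.7% of features were). These comparisons share no array, but in the fit they share the same estimate of the spread. Arrays of a letter may also share a reference labelling. A difference above 0 at both numbers was found for 16 of 33 members and for 25.1% of all features. The pore median was 0.84 at 1GH and 0.41 at 0GH, and that of importins 0.18 at 1GH and 0.28 at 0GH. Export receptors had a median of -0.26 at 1GH and 0.68 at 0GH, and the Ran genes -0.19 at 1GH and 0.46 at 0GH. At 1GH, Kpna6, Nup188 and Nup93 were higher at an unadjusted p under 0.05 (2.03% of features were), and at 0GH Nup93 and Ranbp1 were (2.16%). No member was lower at either number, against 1.47% of features at 1GH and 2.45% at 0GH. Nup93 was the member found at both, with 0.97 ± 0.38 at 1GH (unadjusted p = 0.0275) and 1.28 ± 0.38 at 0GH (SE, unadjusted p = 0.00687).

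**Figure D4:**
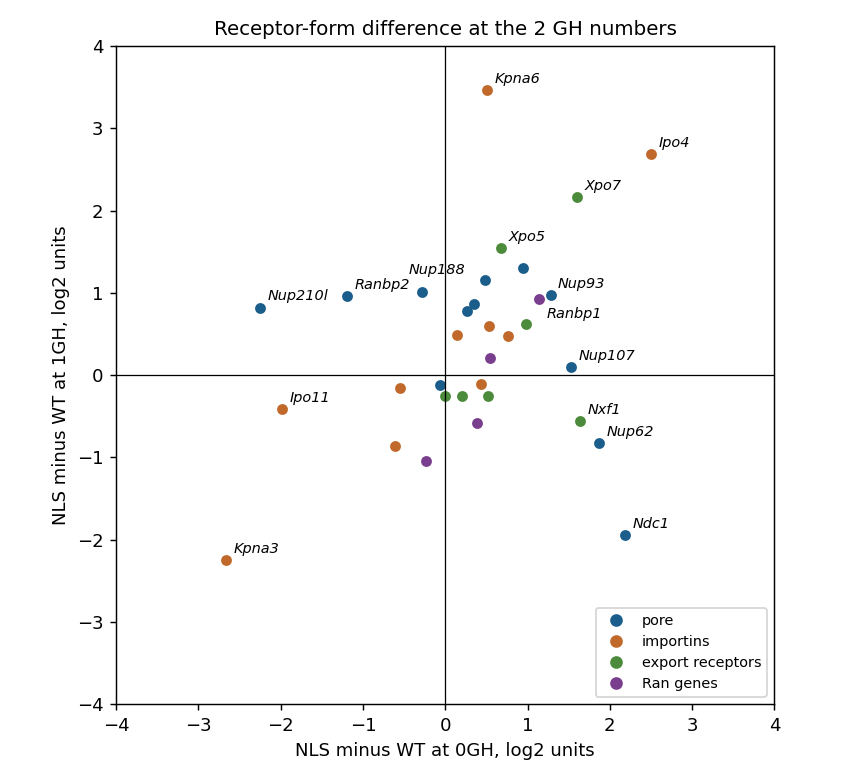
NLS minus WT in log2 units at 0GH (horizontal) and at 1GH (vertical) for the 33 members, coloured by class. The 16 members in the upper right part are above 0 at both numbers, among them Nup93, Nup188, Kpna6 and Ranbp1, while Ndc1 lies at -1.94 at 1GH and 2.19 at 0GH.

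The difference between these differences was tested as an interaction, 1GH minus 0GH of NLS minus WT. Of the members, 1 was higher at an unadjusted p under 0.05 (1.49% of features were) and 1 was lower (0.929%), and none passed the adjustment (limma). Kpna6 had the higher one, 2.95 ± 1.24 (SE, unadjusted p = 0.0391), with a receptor difference of 3.46 ± 0.88 at 1GH (2.3 without letter b) and 0.51 ± 0.88 at 0GH. The unadjusted p of this interaction was 0.0788, 0.0707 and 0.136 without letter b, c or d. Ndc1, a membrane protein that anchors the pore, had the lower one. Its ratios were 1.74, -0.34 and 0.60 on NLS 1GH arrays and 2.99, 0.44 and 3.85 on NLS 0GH arrays, against 4.58, 2.24 and 1.0 on WT 1GH and -0.26, 0.45 and 0.52 on WT 0GH. The WT 1GH arrays all lay above the WT 0GH arrays, while the NLS 0GH arrays were above their 1GH partners. How many of all features had such an order was not counted. The interaction was -4.13 ± 1.49 (SE, unadjusted p = 0.0194, adjusted p = 1.0), and -3.24 without letter b (unadjusted p = 0.0918).

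Within each receptor form, 1GH was compared with 0GH. In NLS, 0 of 33 members reached an unadjusted p under 0.05 (2.92% of features did, 314 of 10762 by limma). In WT, Ndc1 and Nup62 were higher at 1GH (1.15% of features were) and 0 members were lower (1.53% of features were). Nup62, a channel nucleoporin, had ratios of 0.37, 2.14 and -0.91 on NLS 1GH arrays and -0.13, -0.85 and -0.58 on NLS 0GH arrays, against 3.61, 1.85 and -1.37 on WT 1GH and -5.06, -0.21 and -1.89 on WT 0GH. Letter b held both the highest and the lowest WT value. The difference in WT was 3.75 ± 1.44 (SE, unadjusted p = 0.0259) and 1.32 without letter b (unadjusted p = 0.396). For Ndc1 it was 2.37 (unadjusted p = 0.0478), and 1.16 without letter b (unadjusted p = 0.35). With the replicate block 4 members passed the unadjusted p in WT (3.73% of features did), Nxf1 higher and Ranbp2 lower in addition.

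In NLS the 2 members with the smallest p were Ipo11 and Ipo9, import receptors of the importin beta family. Ipo11 had ratios of -0.26, -0.06 and -3.04 on NLS 1GH arrays and -1.06, -4.98 and -3.0 on NLS 0GH arrays, against -0.47, 0.22 and -1.88 on WT 1GH and -0.45, -1.24 and -1.41 on WT 0GH. The lowest value, on the NLS 0GH array c, stood apart, and the 1GH minus 0GH difference was 1.90 ± 1.07 (SE, unadjusted p = 0.107), and 0.38 without letter c. Ipo9 had ratios of -0.04, -0.13 and -0.15 on NLS 1GH arrays and 3.96, 0.19 and 2.15 on NLS 0GH arrays, against 0.68, -0.63 and 2.23 on WT 1GH and 1.15, 1.39 and 5.59 on WT 0GH. The 3 NLS 1GH arrays lay close together below the NLS 0GH arrays, of which c, at 0.19, was the nearest. How many of all features had this order was not counted. The difference was -2.20 ± 1.28 (SE, unadjusted p = 0.117 by limma). It was -1.37 without letter b (unadjusted p = 0.423).

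**Figure D5:**
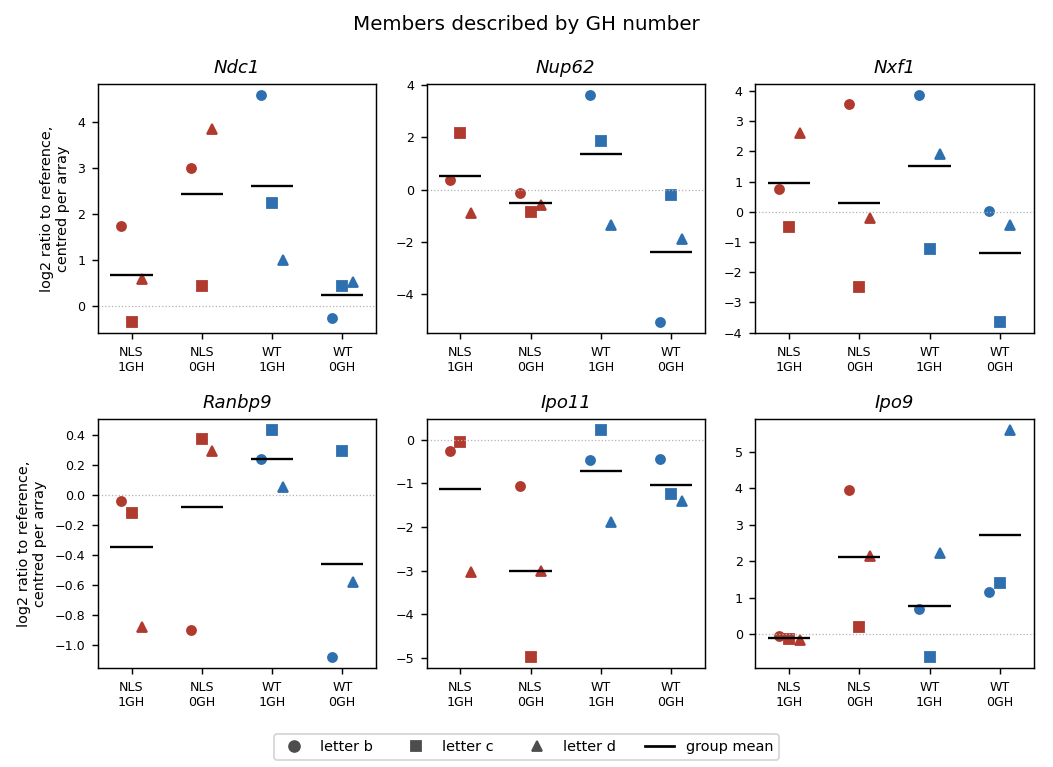
Centred log2 ratio on each of the 12 arrays for 6 members described by GH number, with NLS 1GH, NLS 0GH, WT 1GH and WT 0GH from left to right, symbols for letters and bars for group means. The letter b arrays of Nup62 in WT lie at 3.61 for 1GH and -5.06 for 0GH, and the NLS 0GH array c of Ipo11 lies at -4.98.

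The members without a value on all arrays include genes at the centre of the pathway. They had 64 of 102 possible values in NLS and 68 of 102 in WT. Ran was measured on 10 arrays, with a median of 1.63 in NLS and 0.97 in WT, and its WT values alone ran between -2.52 and 6.6. Cse1l, the exportin that returns importin alpha to the cytoplasm, had 2.67, 2.78 and 2.47 on 3 NLS arrays and 1.28 on 1 WT array. Kpna4, an importin alpha, had a median of 1.40 in NLS and 0.66 in WT over 11 arrays, and Xpot, the exportin of transfer RNA, 0.89 in NLS and 0.50 in WT over 11. By means, NLS minus WT was 0.4 for this Xpot spot and 1.41 for a second Xpot spot, measured on 10 arrays. Tnpo2, a transportin, had -0.29 in NLS and -2.04 in WT over 10 arrays, and its WT values alone ran between -4.22 and 5.86.

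Among the pore genes with missing arrays, the medians were 1.75 in NLS and 0.34 in WT for Nup155, and 1.76 in NLS and 1.27 in WT for Nup210. Nup88 had 2.4 on 4 NLS arrays and 0.56 on 4 WT arrays, and its values ran between -5.1 and 3.95. Nup37, of the Y complex, had 0.13 in NLS and -1.7 in WT over 11 arrays, and its NLS values alone ran between -3.07 and 2.38. The 6 members with the lower median in NLS lie in all 4 classes. Nup98, a channel nucleoporin, had a median of -0.09 on 4 NLS arrays and 1.38 on 1 WT array, and Nup54, also of the channel, -1.41 on 2 NLS arrays and 1.33 on 2 WT arrays. Ranbp3, a cofactor of Xpo1, had -2.69 in NLS and 0.94 in WT over 11 arrays that ran between -6.56 and 6.3. Ipo5 had 1.11 in NLS and 1.28 in WT, and Ranbp17 -0.18 in NLS and 0.1 in WT. Xpo4 had -3.12 on 3 NLS arrays and -0.72 on 5 WT arrays, and its values ran between -7.22 and 0.82. Ipo7, at -3.31, and Nxf7, at -2.47, had a value on 1 WT array each. Of the 15 members with values in both forms, 9 thus had the higher median in NLS and 6 the lower. The share over all features with missing arrays was not counted, and none of these values was tested.

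Other genes of the pathway were given by lists, none of which had a gene past the adjusted threshold. For the counts below, 47.7% of all features were higher in NLS. Of the other pore genes, 4 of 7 were measured and all 4 were higher in NLS (median 0.33), with Nupl2 at 0.89 ± 0.43 and Seh1l, a Y complex protein, at 0.47 ± 0.31 (SE). Of the mRNA export and cap binding genes, 8 of 14 measured were higher and 6 lower (median 0.05). Among them the export adaptor Alyref stood at 0.55 ± 0.26 and Thoc5 at -0.81 ± 0.58 (SE). Of the transport adaptors, 4 of 5 measured were higher (median 0.15), and of the lamina and envelope genes 7 of 9 (median 0.33). Of the SUMO cycle genes, 4 of 5 were higher (median 0.32). The one lower was Senp1, a SUMO protease, at -1.96 ± 0.67 (SE, unadjusted p = 0.0155, adjusted p = 0.844 by limma), lower in all 6 pairs (2.48% of all features were). The proliferation list, with 5 of 7 measured, had 3 genes higher and 2 lower in NLS (median 0.03). Its mean level was 0.68 to 1.1 on NLS arrays and 0.26 to 0.96 on WT arrays, and its part in the differences of the transport genes was not tested.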

How the data were processed

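Transcript ratios were taken from the value table of 12 two-colour arrays. Per the labels, Cy3 held the sample and Cy5 the embryonic reference. The deposited values are read as log2 ratios, with the base taken from their span, -14.6 to 18.2, because no unit is stated in the labels. Per the series' design text, the authors fitted a Lowess curve over 50.0% of the data and set control-channel values under 200 to 200. No label names the scanner, the background correction or the numerator. As deposited, 37 of 41 measured embryo-tissue genes were positive, with 78.1% to 89.7% of them on that side on each array, so all values were multiplied by -1 to read sample over reference. If that reading is wrong, every sign turns.

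Of 23040 spots, 902 controls were left out, 11245 had a value on all 12 arrays, and spots of one gene were averaged to 10762 features (8707 named genes). In the platform annotation 16955 spots (controls included) had one symbol and 142 several (not used), and 5276 non-control spots had none listed. By Entrez identifier 16249 spots matched RefSeq and 0 symbols changed. Array medians as deposited ran from -1.24 to 0.89, so each array was centred on the median of its tested features. Depth does not apply to arrays: the number of arrays limits the precision.

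limma 3.58.1 (lmFit, eBayes, R 4.3.3) was fitted to 4 group means over all 12 arrays. Tests were two-sided, and p-values were adjusted by Benjamini-Hochberg per comparison, with a threshold of 0.05. The fit was tested on simulated data. Tables were made with Python 3.11.15 and pandas 2.3.3. The labels give the same red dye incorporation to all arrays of a letter (19.3 bp per dye for b, 19.8 for c, 17.9 for d). The arrays of a letter may thus share a reference labelling, but no label states this or a pairing. The main fit has no term for the letter, and the replicate block adds it. Deviations of arrays from their group means correlated at 0.0433 to 0.263 within a letter and -0.187 to 0.066 between letters and groups. Green dye incorporation was 12.8 to 16 on NLS and 14.2 to 19.2 bases per dye molecule on WT arrays.

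The members and lists were chosen with earlier results of these data known. Per-array values are given for the 3 members of each class with the smallest p in the averaged comparison, for fixed central genes measured on all arrays, and for the 2 with the smallest p in each GH comparison and the interaction (17 genes), and for Ranbp9, named after its values were seen. Alternatives were the replicate block, values left uncentred, quantile normalization, a looser filter (at least 2 values in each group), ratios beyond 8.36 (the bound of a 16-bit scanner over the floor) set to missing, spots not averaged, and each letter and array left out.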

Additional observations from a re-analysis of the deposited data

Results flagged for a closer look

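Ranbp9, a scaffold protein of a ubiquitin ligase complex that also binds Ran, had a receptor difference of opposite sign at the 2 GH numbers in every letter. Its ratios were -0.04, -0.12 and -0.88 on NLS 1GH arrays and -0.90, 0.37 and 0.29 on NLS 0GH arrays, against 0.24, 0.43 and 0.05 on WT 1GH and -1.08, 0.29 and -0.58 on WT 0GH. NLS was lower than WT in all 3 letters at 1GH and higher in all 3 at 0GH. The 0GH differences were 0.18, 0.08 and 0.87 in the letters b, c and d, with a mean of 0.38 ± 0.49 (SE). Ranbp9 was named after its values were seen, and the share of all features with this sign pattern was not counted. The interaction was -0.96 ± 0.69 (SE) with an unadjusted p of 0.197 and an adjusted p of 1.0 (limma), so the difference between the 2 numbers did not pass the test. Without letter d it was -0.55.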

How the results depend on the processing

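No feature passed the adjusted p of 0.05 in any comparison under any of the 21 alternatives (limma; at an unadjusted p under 0.05 the averaged comparison had 567 features, and 854 with the replicate block). With the replicate block, 4 of 33 members passed an unadjusted p of 0.05 for 1GH minus 0GH in WT (401 of 10762 features). Without the block 2 members did (289 features), and it ended no adjusted call, as there was none. Without centring, the median of all features moved to 0.08 for the averaged comparison, 0.35 at 1GH and -0.18 at 0GH, and 167 of 256 features at an unadjusted p under 0.05 were higher in NLS, against 302 of 567 with centring. At 1GH it was 215 of 234 against 218 of 376, and at 0GH 41 of 239 against 232 of 496. For the interaction it was 200 of 214 against 160 of 260, for 1GH minus 0GH in WT 31 of 159 against 124 of 289, and in NLS 213 of 234 against 184 of 314. Members at an unadjusted p under 0.05 then numbered 3 for the averaged comparison, 1 each at 1GH, for the interaction and for 1GH minus 0GH in WT, and 0 at 0GH. Quantile normalization left 1 of 33 members at 0GH (414 of 10762 features) and 1 for the interaction (278 features). With at least 2 values per group, 42 members and 15115 features were tested. There was 1 member at 0GH (811 features), 1 for the interaction (465) and 1 for 1GH minus 0GH in NLS (522). With extreme ratios set to missing, 42 members and 14928 features were tested. There, 1 member was left at 0GH (803 features) and 1 for 1GH minus 0GH in NLS (517). The median of importins was 0.34 without centring and 0.32 under both looser filters.

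Over single arrays and letters left out, these counts of members ran between 2 and 7 for the averaged comparison. The lowest, 2, was without letter c, and 3 were left without letter b. They ran between 1 and 5 at 1GH, 0 and 3 at 0GH, and 0 and 3 for the interaction. For 1GH minus 0GH they ran between 0 and 3 in WT and 0 and 2 in NLS. These fits tested 33 to 37 members and 10792 to 12719 features. Features at an unadjusted p under 0.05 ran between 457 and 905 for the averaged comparison, 272 and 705 at 1GH, and 384 and 769 at 0GH. They ran between 236 and 562 for the interaction, 242 and 459 for 1GH minus 0GH in WT, and 275 and 636 in NLS. The class medians ran between 0.07 (without letter b) and 0.85 for the pore, 0.16 and 0.39 for importins, -0.03 (without WT 0GH c) and 0.89 for export receptors, and -0.19 (without NLS 1GH b) and 0.30 for the Ran genes. Among the 17 genes given by array, the sign of NLS minus WT turned for Ndc1 (-0.54 to 0.85, and -0.01 by quantile normalization), Nxf1 (-0.28 to 1.23), Nup62 (-0.17 to 1.08) and Ipo9 (-1.65 to 0.36). The cause was not tested. Nup93 kept an unadjusted p under 0.05 in 21 of 21 alternatives, Kpna6 in 20, Ranbp1 in 19 and Nup188 in 17.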
